A study of Mus musculus with 33 samples.

Results

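The regions described here are the sites where p53 was called in knock-in (KI) lymphomas before p53 function was restored, leaving out the sites that every unactivated Arf lymphoma shared. Peaks of all 26 lists were merged where they shared at least 1 bp, which gave 18927 regions. Of these, 897 had a peak in at least 1 of the 4 lists from ethanol-treated (EtOH) KI tumours. The 842 that were not also called in all 12 lists from untreated, water-treated, DMSO-treated or (+)-Nutlin-treated Arf tumours are the members. The other 55 EtOH regions were called in all 12. Calls in the EtOH lists and in those 12 Arf lists chose the members, so their values there are given as a description. Calls in the OHT, doxorubicin and (-)-Nutlin lists did not enter the choice, but their peaks helped to set how far each merged region reached, and with every peak set to 200 bp around its midpoint there were 860 members.

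p53, encoded by Trp53, binds DNA as a tetramer and switches on genes of cell cycle arrest, apoptosis and its own feedback control. In unstressed cells Mdm2 binds p53, blocks it and marks it for degradation, and Arf, made when an oncogene such as Myc is active, holds Mdm2 back. In the KI allele, p53 is joined to a hormone-binding domain of the oestrogen receptor, which keeps it inactive until 4-hydroxytamoxifen (OHT) is given.

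Binding was measured by chromatin immunoprecipitation with the CM5p antibody against p53 and sequencing, in B cell lymphomas from lymph nodes of Eµ-myc mice of the C57/Bl6 strain, in which Myc is driven in B cells. Tumours 1 to 4 carried Trp53 KI over a deleted allele, and cells of each received 100 nM OHT or EtOH (1 volume per 1000) for 2 h. Tumours 5 to 7 were Arf-/- with wild-type Trp53, and cells of each received 1 µM doxorubicin (a DNA-damaging drug), 5 µM (-)-Nutlin (the form that blocks binding of Mdm2 to p53), 5 µM (+)-Nutlin (its mirror image), DMSO (0.5 volumes per 1000) or water (1 volume per 1000) for 3 h, or were left untreated. KI and Arf tumours thus differ in Trp53, Arf, agent and time together, each tumour gave 1 list per condition, and node tissue was dissociated without a purification step, so other node cells may be present. The lists give peak positions only, so that binding strength and the labelled cell type could not be checked, and a region without a peak may still be bound below the caller's threshold. List length and peak width set what can be seen. OHT, doxorubicin and (-)-Nutlin lists held 3597 to 11346 peaks, none narrower than 278 bp, against 116 to 742 peaks in EtOH lists, with minimum widths of 52 to 53 bp. All 4 lists of tumour 5 among the 12 unactivated Arf lists were of the wide kind, and the 8 of tumours 6 and 7 of the narrow kind.

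Most members came from a single KI tumour. The EtOH list contributed 22 members in tumour 1, 150 in tumour 2, 602 in tumour 3 and 299 in tumour 4, where it held 0.391%, 0.866%, 3.30% and 1.65% of all regions. Tumour 3, with the longest EtOH list, stood far above tumour 1. Of the 842, 652 were called in 1 EtOH list, 151 in 2, 37 in 3 and 2 in all 4. Tumour 3 alone accounted for 437 members, tumour 4 alone for 145, tumour 2 alone for 60 and tumour 1 alone for 10. Sharing was nevertheless frequent from the shorter lists into the longest: 44.0% of the tumour 2 members and 43.8% of the tumour 4 members were also called in the EtOH list of tumour 3, and 9 of the 22 tumour 1 members.

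The EtOH list of tumour 1 differed in kind from the others. Members made up 29.7% of its 74 regions, against 91.5% of 164 in tumour 2, 96.3% of 625 in tumour 3 and 95.8% of 312 in tumour 4. The rest of each list consisted of regions called in all 12 unactivated Arf lists, which numbered 52 in tumour 1, 14 in tumour 2, 23 in tumour 3 and 13 in tumour 4. Tumour 1, with the shortest list, thus held the most of them. Peaks at members were narrow in every EtOH list, with medians of 68.0, 66, 73.0 and 74.0 bp in tumours 1 to 4, against 257, 148, 200 and 141 bp at the regions shared with all 12 Arf lists.

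**Figure D1:**
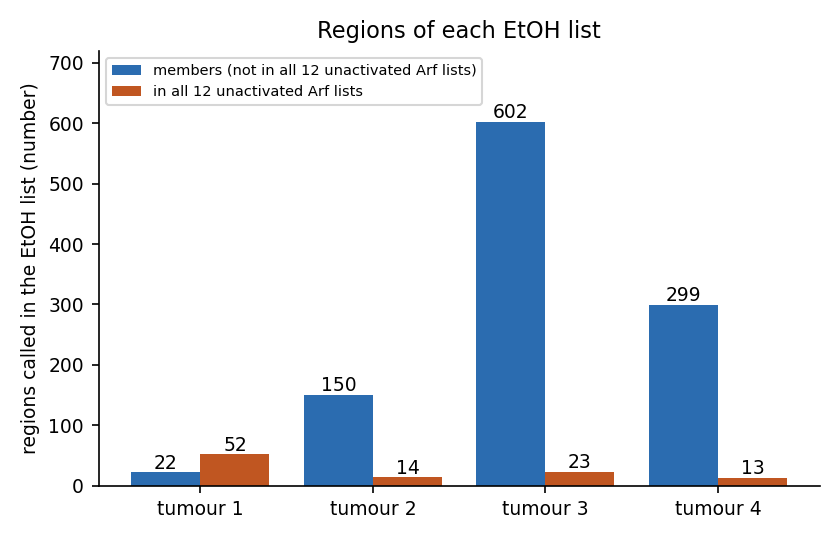
Number of merged regions in the EtOH list of each KI tumour, split into members (blue) and regions called in all 12 unactivated Arf lists (orange), 1 list per tumour. Members are 22 of 74 regions in tumour 1 and 602 of 625 in tumour 3.

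The number of members without a peak in any unactivated Arf list was 214 (25.4%), against 78.5% of all regions, shares that the rule itself shaped. The lists of tumour 5, which are of the wide kind, held 424 members untreated (50.4%, against 14.1% of all regions), 326 with water (38.7%, against 11.6%), 229 with DMSO (27.2%, against 8.91%) and 354 with (+)-Nutlin (42.0%, against 12.3%). In tumour 6 the same conditions gave 209 (24.8%, against 7.99%), 171 (20.3%, against 6.20%), 68 (8.08%, against 3.42%) and 118 members (14.0%, against 4.26%). In tumour 7 they gave 24 (2.85%, against 2.46%), 38 (4.51%, against 2.91%), 47 (5.58%, against 3.04%) and 37 members (4.39%, against 2.56%). Calls therefore fell in the order of tumours 5, 6 and 7 in all 4 conditions, and for 271 members the calls came from tumour 5 alone. Regions called in all 12 lists count among all regions, but the rule bars them from the members. They made up 50.8% to 62.8% of the regions in the tumour 7 lists, so the share of all regions is not a like base there. The regions at the edge of the rule were few: 3 members were called in 11 of the 12 lists and had on average 1.67 OHT lists, and the 55 EtOH regions just outside, with 12 of 12, had 3.85.

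All but 33 of these sites were called in at least 1 OHT list. The OHT list of tumour 1 held 498 members (59.1%, against 21.4% of all regions), that of tumour 2 held 535 (63.5%, against 18.8%), that of tumour 3 held 797 (94.7%, against 52.8%) and that of tumour 4 held 801 (95.1%, against 50.9%). Tumours 1 and 2, whose OHT lists held 4102 and 3597 peaks, lay well below tumours 3 and 4, whose lists held 10084 and 9738. A peak in all 4 OHT lists was found at 385 members (45.7%), while 8.61% of all regions had one. Members called in 1 EtOH list had a peak in all 4 OHT lists in 40.2% of cases, those called in 2 lists in 60.9%, those called in 3 lists in 81.1% (30 of 37) and those called in 4 lists in 1 of 2 cases. No OHT list had a peak at 4.14% of the members called in 1 EtOH list, 1.99% of those in 2 and 8.11% of those in 3, so the share without an OHT call did not follow the same order.

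**Figure D2:**
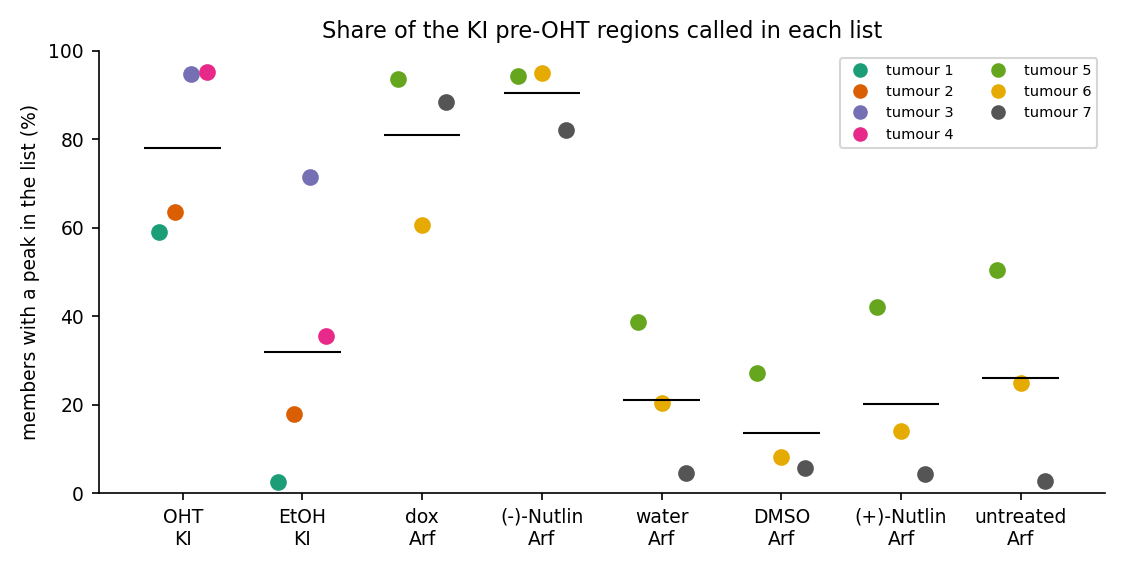
Share of the 842 members with a peak in each of the 26 lists, by condition, with 1 point per tumour and a line at the mean of the condition. OHT lists lie between 59.1% and 95.1% and unactivated Arf lists between 2.85% and 50.4%. The EtOH points and the unactivated Arf points were used to choose the members.

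Whether a tumour called its own EtOH sites again after OHT was compared with the OHT lists of the other KI tumours. The 22 members of tumour 1 were called in 54.5% of cases in their own OHT list, against 40.9%, 59.1% and 63.6% in those of tumours 2, 3 and 4. The 150 of tumour 2 were called in 83.3% in their own list, against 74.0%, 94.0% and 96.7% in those of tumours 1, 3 and 4. Members of tumours 1 and 2 were thus called more often in the long OHT lists of tumours 3 and 4 than in their own. The 602 of tumour 3 were called in 96.3% in their own list, against 58.3%, 62.5% and 95.7% in those of tumours 1, 2 and 4. The 299 of tumour 4 were called in 95% in their own list, against 67.6%, 70.9% and 93.6% in those of tumours 1, 2 and 3.

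Averaged over tumours, the share was 82.3% ± 19.4 (SD, n = 4) in the own list and 73.1% in those of other tumours, a difference of 9.23 percentage points. Every OHT list enters both averages with the same weight, so that a list that is long for all tumours does not itself give a difference. Over the 24 ways of pairing the 4 EtOH with the 4 OHT lists, the true pairing ranked first. Its two-sided exact permutation p of 0.0417 is the lowest that 24 pairings allow. Members of tumours 3 and 4 were called in 95.7% and 93.6% in each other's OHT lists, so the pairing that swaps them came close. With 1 tumour left out, 3 pairs cannot give a p below 0.167, and the difference ran from 5.99 points without tumour 1 to 13.3 without tumour 4. Within 1 OHT list, members that its tumour had called before OHT can be set beside those that only other tumours had called. They were called in 54.5% against 59.3% of cases in tumour 1, 83.3% against 59.2% in tumour 2, 96.3% against 90.4% in tumour 3 and 95% against 95.2% in tumour 4, so tumours 2 and 3 showed an excess and tumours 1 and 4 did not.

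The narrow EtOH peak mostly lay inside the wider OHT peak of its tumour. It was wholly inside at 10 of 12 members in tumour 1 with a peak in both lists, 111 of 125 in tumour 2, 571 of 580 in tumour 3 and 274 of 284 in tumour 4. The median distance between the 2 peak centres was 122, 108.5, 109.25 and 117.25 bp in tumours 1 to 4, and 41.7% to 44.5% of the pairs lay within 100 bp. Both peaks of a pair share a merged region and the OHT peak is far wider, so the merge rule itself favours containment. The counts of EtOH peaks wholly inside are therefore a description. EtOH centres spread evenly over an OHT peak of median width would give median distances of 168.75, 132.5, 158.125 and 161.375 bp. The observed distances were shorter in each tumour, which was not tested. Fragments averaged 250 bp, per the labels.

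OHT peaks were also wider at members that the same tumour had called before OHT. Their median width was 675 bp over 12 peaks in tumour 1, 530 bp in tumour 2, 632.5 bp in tumour 3 and 645.5 bp in tumour 4, against 407, 453, 612 and 576 bp at members called in EtOH lists of other tumours alone. The order was the same in all 4 tumours, with the smallest gap in tumour 3, and was not tested.

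How wide the OHT peaks were at these sites differed between tumours. Median widths at members were 408.5 bp in tumour 1, 460.0 in tumour 2, 624.0 in tumour 3 and 597.0 in tumour 4, against 452.0, 455.0, 474.0 and 442.0 bp at all other regions of the same lists. Members were wider than the rest in tumours 3 and 4, near equal in tumour 2 and narrower in tumour 1. The difference in mean log2 width was -0.15, 0.02, 0.36 and 0.41 in tumours 1 to 4, on average 0.16 ± 0.27 (SD, n = 4), with a two-sided exact sign-change p of 0.375, where 4 tumours allow no p below 0.125. Width here stands for the extent of a called peak and is no measure of binding strength.

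Set beside the 237 regions that every unactivated Arf list held but no EtOH list, the contrast between KI tumours was larger. Within the OHT list, the median percentile of peak width was 40.1 at members and 91.1 at these Arf regions in tumour 1, 51.3 and 85.0 in tumour 2, 78.0 and 86.6 in tumour 3, and 80.1 and 50.7 in tumour 4. Members were thus the narrower set in tumours 1, 2 and 3 and the wider one in tumour 4. The OHT list of tumour 1 held 59.1% of the members and 99.2% of the Arf regions, that of tumour 2 held 63.5% and 82.7%, that of tumour 3 held 94.7% and 90.3%, and that of tumour 4 held 95.1% and 65.0%. In tumour 3 members were thus the narrower set but were called more often. Each tumour gave 1 OHT list, so this difference between tumours was not tested. The 237 also had to miss every EtOH list of these KI tumours, while members needed a peak in at least 1. The choice thus tilts the contrast in OHT lists as well. In doxorubicin and (-)-Nutlin lists all 237 Arf regions were called, with median percentiles of 96.4 to 97.9, against 31.6 to 74.7 at members. The 237 were chosen by calls in every unactivated list of these same Arf tumours, while members had to miss at least 1 of them. The choice itself tilts this contrast, which is a description.

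**Figure D3:**
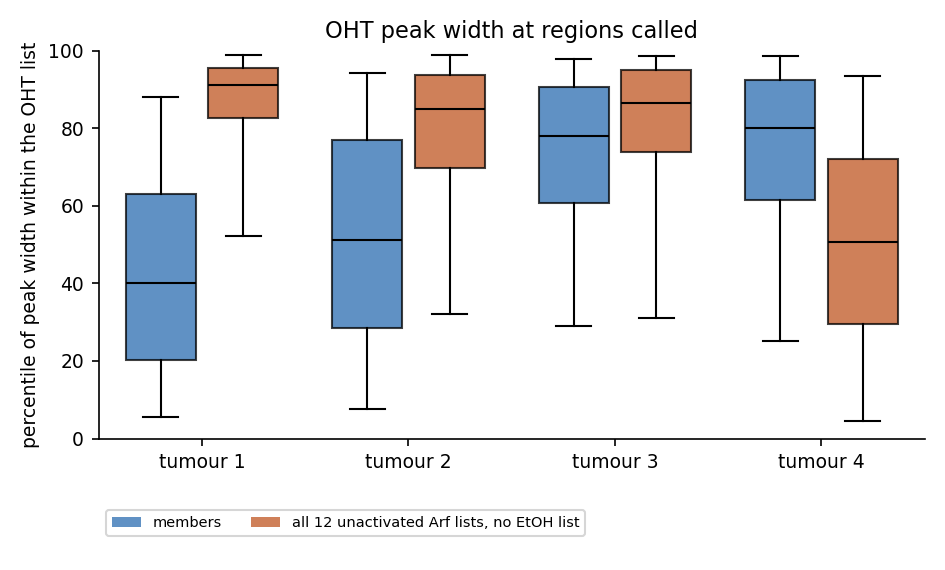
Percentile of peak width within each OHT list at members (blue) and at regions called in all 12 unactivated Arf lists but no EtOH list (orange), for regions with a peak in that list. Boxes span the quartiles with a line at the median and whiskers reach the 5th and 95th percentiles. The medians are 40.1 and 91.1 in tumour 1, and 80.1 and 50.7 in tumour 4.

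Wild-type p53 in activated Arf tumours was called at most of the same sites. Doxorubicin lists held 788 members in tumour 5 (93.6%, against 59.3% of all regions), 511 in tumour 6 (60.7%, against 43.2%) and 744 in tumour 7 (88.4%, against 50%). In (-)-Nutlin lists the numbers were 794 in tumour 5 (94.3%, against 54.8%), 800 in tumour 6 (95%, against 55.7%) and 691 in tumour 7 (82.1%, against 29.5%). The doxorubicin list of tumour 6 was the low one. All 3 doxorubicin lists had a peak at 490 members (58.2%, against 25.5% of all regions), and all 3 (-)-Nutlin lists at 684 (81.2%, against 27.1%). Peak widths at members in these lists had medians of 619.5, 411 and 579 bp with doxorubicin and 549.5, 531 and 548 bp with (-)-Nutlin in tumours 5 to 7, so the narrowest again belonged to doxorubicin in tumour 6. Over the 6 lists, log2 width at members minus that at other regions averaged 0.07 ± 0.26 (SD, n = 6 lists of 3 tumours), within its spread. A peak in all 10 of the OHT, doxorubicin and (-)-Nutlin lists was found at 295 members (35.0%, against 5.76% of all regions).

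No difference between doxorubicin and (-)-Nutlin was detected at these sites over the 3 tumours. The mean share called was 80.9% ± 17.7 with doxorubicin and 90.5% ± 7.25 with (-)-Nutlin (SD, n = 3 each). The difference was -9.58 points with a two-sided exact permutation p of 0.5, where 3 against 3 lists allow no p below 0.1. That test shuffled the lists as if independent, although each tumour gave 1 of each. With differences taken within tumours, the exact sign-change p was 0.75, where 3 tumours allow no p below 0.25. The paired 95% interval, which takes the 3 differences as normal, ran from -63.5 to 44.4 points, so a difference in either direction remains possible. By tumour the difference was -0.713 points in tumour 5, -34.3 in tumour 6 and 6.29 in tumour 7. Without tumour 6 the mean difference was 2.79 points. In tumour 6, 1 member was called with doxorubicin alone and 290 with (-)-Nutlin alone. The median width percentile at members there was 31.6 with doxorubicin and 74.7 with (-)-Nutlin. The 3158 regions called in 1 to 11 unactivated Arf lists and no EtOH list differed in tumour 6 by -15.7 points. The doxorubicin list of tumour 6 was shorter than its (-)-Nutlin list, with 8250 against 10674 peaks. All 10 activated lists were also cut to their 3597 widest peaks, the length of the shortest. The mean difference over the 3 tumours was then -26.5 points with an exact permutation p of 0.1, a floor that lies above the threshold of 0.05. Such a cut drops narrow peaks first, and members had the lower width percentile in the doxorubicin list of tumour 6. The part of list length in the difference was therefore not tested.

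Neither was a difference detected between restored KI p53 and activated wild-type p53 in the share of members called. It averaged 78.1% ± 19.5 in OHT lists (SD, n = 4) and 85.7% ± 13.2 in the doxorubicin and (-)-Nutlin lists together (SD, n = 6 lists of 3 tumours). The difference was -7.55 points with a two-sided exact permutation p of 0.457. That test shuffled the 10 lists as if independent, although each Arf tumour gave both a doxorubicin and a (-)-Nutlin list. Its p therefore does not measure the spread between tumours. When the 10 lists were cut to their 3597 widest peaks, the length of the shortest, the difference turned to 17.1 points with an exact p of 0.124. Its direction thus depends on whether the lists are cut in this way. The cut changed list length, the widths kept and the merged regions together, so the part of list length was not tested.

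Members were also set beside the 3158 regions called in 1 to 11 unactivated Arf lists and in no EtOH list, which had likewise been called without activation. This comparison was chosen after seeing the data. The OHT lists held more of the members than of these Arf-only regions, by 10.9 points in tumour 1, 28.1 in tumour 2, 28.9 in tumour 3 and 38.2 in tumour 4, on average 26.5 ± 11.4 (SD, n = 4). The difference was 0.996, -12.3 and -0.588 points in the doxorubicin lists and 2.03, 6.32 and 6.92 in the (-)-Nutlin lists of tumours 5, 6 and 7, on average 0.562 ± 6.97 (SD, n = 6 lists of 3 tumours). Every OHT list lay above every activated Arf list. The members were selected on EtOH cells of the same tumours that gave the OHT lists, and the Arf-only regions on the tumours that gave the Arf lists, which tilts the comparison in this direction. It is therefore a description with no test, and selection and genotype cannot be told apart.

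**Figure D4:**
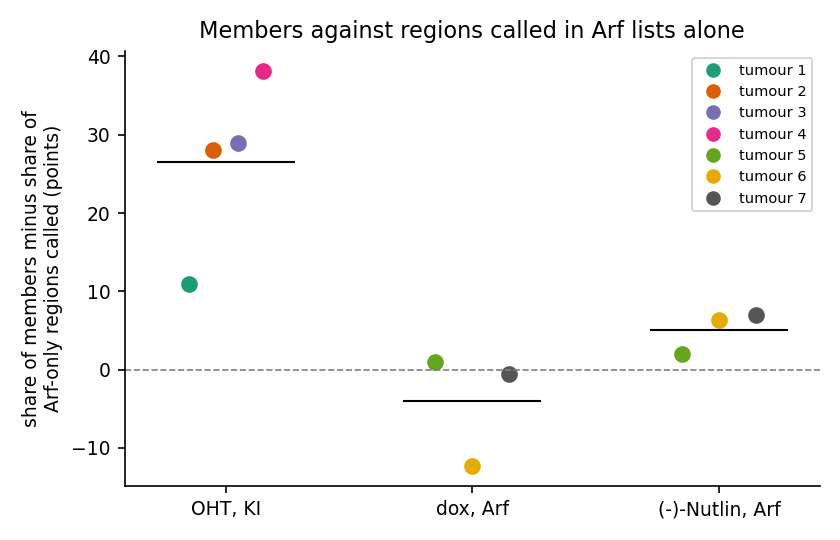
Share of members called minus share of Arf-only regions called, in percentage points, for each OHT, doxorubicin and (-)-Nutlin list, with 1 point per tumour, a line at the mean of the condition and a dashed line at 0. The 4 OHT points lie between 10.9 and 38.2 and the 6 Arf points between -12.3 and 6.92.

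The 214 members without any unactivated Arf call were set apart by lists that the rule used, so their values are a description. Their share in OHT lists was 36.0%, 39.7%, 89.7% and 89.7% in tumours 1 to 4, against 59.1%, 63.5%, 94.7% and 95.1% of all members. In doxorubicin lists it was 85.0%, 36.4% and 72.4%, and in (-)-Nutlin lists 85.5%, 87.4% and 56.5%, in tumours 5, 6 and 7. The doxorubicin list of tumour 6 was again the low one among Arf lists. A peak in all 4 OHT lists was found at 43 of the 214 (20.1%), against 45.7% of all members and 8.61% of all regions, and a peak in all 10 activated lists at 24 (11.2%), against 35.0% and 5.76%.

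Of single sites, 2 were called in all 4 EtOH lists. The first, on chromosome 3 from 96066744 to 96067742 (mm9 throughout), had EtOH peaks of 71, 54, 63 and 86 bp in tumours 1 to 4, and it had a peak in each of the 10 activated lists (OHT, doxorubicin or (-)-Nutlin) and in 5 unactivated Arf lists. Its OHT peaks measured 492, 750, 782 and 922 bp in tumours 1 to 4. The second, on chromosome 16 from 57391303 to 57392080, had EtOH peaks of 168, 63, 54 and 59 bp, but an OHT peak in tumour 1 alone, of 619 bp. It was called in all 6 doxorubicin and (-)-Nutlin lists, with peaks of 466 to 778 bp, and in 11 of 12 unactivated Arf lists. In KI tumours 2, 3 and 4 the OHT lists thus lacked this site while the EtOH lists held it. Those OHT lists held no peak narrower than 352, 328 and 304 bp, far above the EtOH widths. The kind of list and the treatment therefore cannot be told apart at this site.

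Of the 37 members called in 3 EtOH lists, 30 were called in every OHT list and 3 in no OHT list. The 10 named here come first by number of activated lists and then by position. Their peaks in all 10 activated lists and their low-numbered chromosomes were thus fixed by the choice. These 10 sites lay on chromosomes 1, 3 and 5 and had peaks in 3 to 9 unactivated Arf lists. The 3 on chromosome 1, from 90173566 to 90174628, from 182780378 to 182781516 and from 193398853 to 193400289, were called in tumours 2, 3 and 4 with EtOH peaks of 53 to 198 bp. On chromosome 3 the sites ran from 51287547 to 51288542, from 95021058 to 95022353, from 96361238 to 96362272, from 105761918 to 105762679 and from 108003165 to 108004010. Their OHT peaks averaged 664.8, 762.2, 794.2, 545.0 and 623.8 bp. The widest EtOH peak among the 10, of 261 bp in tumour 3, lay at the site on chromosome 5 from 33720715 to 33721634, beside 61 bp in tumour 2 and 56 bp in tumour 4. The other site on chromosome 5, from 22892302 to 22893239, had EtOH peaks of 78, 158 and 96 bp in tumours 2, 3 and 4 and OHT peaks of 777, 768, 885 and 818 bp in tumours 1 to 4.

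Sites called before OHT in KI tumours, in every activated list and in no unactivated Arf list numbered 24. Of these the 5 with the widest OHT peaks are named. On chromosome 1, from 173432614 to 173434197, the EtOH peak of tumour 4 measured 135 bp and the OHT peaks 487, 848, 1577 and 1392 bp in tumours 1 to 4. On chromosome 5, from 115607833 to 115609062, EtOH peaks of 202 and 113 bp in tumours 3 and 4 stood beside OHT peaks of 828, 820, 853 and 1193 bp. The remaining 3 were at 80783001 to 80784273 of chromosome 10 and at 123578401 to 123579550 and 140894459 to 140895610 of chromosome 5. Each was called with EtOH in tumour 4 alone, in peaks of 112, 81 and 84 bp. All 5 had wider OHT peaks in tumours 3 and 4 than in tumour 1.

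A small set of members was not called after OHT. It numbered 33 of 842 (3.92%), against 33.0% of all regions. Of these, 23 had no peak in doxorubicin or (-)-Nutlin lists either, and 22 of those spanned less than 278 bp, the minimum peak width in the 10 activated lists, so the kind of list and the treatment cannot be told apart for them. The exception lay on chromosome 2 from 98502226 to 98503234, with EtOH peaks of 60, 71 and 59 bp in tumours 1, 3 and 4 and calls in 10 unactivated Arf lists, among them peaks of 685 to 1009 bp in tumour 5. A second site lay close by, on chromosome 2 from 98506300 to 98507579. It was called in 3 EtOH lists, in 11 unactivated Arf lists, and after activation just with doxorubicin in tumour 7 (656 bp) and (-)-Nutlin in tumour 6 (359 bp). The lists were not filtered for repeats or blacklisted positions here, and whether these are p53 sites was not tested.

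The sites next in number of lists without an OHT call were found at 44964664 to 44965384 of chromosome 13, at 15519570 to 15520295 of chromosome 8 and at 3151460 to 3151549 of chromosome 6. They were called in 11, 10 and 9 lists in all, of which 2, 4 and 0 were doxorubicin or (-)-Nutlin lists. Short sites clustered near one chromosome end: all 5 members on chromosome 9 below 4 Mb lacked an OHT call, and lay between 3000382 and 3025559. On chromosome 11, 3 of the 6 members between 87 and 88 Mb lacked one, among them a site from 87256911 to 87257318 that 3 EtOH lists had called. These 2 clusters were singled out after their values were seen. Peaks in EtOH lists alone made up 12 members, of which the widest were 143 bp at 74917291 to 74917433 of chromosome 15, 109 bp at 85102027 to 85102135 of chromosome 1 and 94 bp at 45290844 to 45290937 of chromosome 14, each in tumour 3.

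The members were unevenly spread over chromosomes. Chromosome 5 held 113 of them (13.4%), against 6.65% of all other regions, a ratio of 2.02. Chromosome 11 held 83 (9.86% against 7.87%) and chromosome 3 held 68 (8.08% against 5.33%), and chromosomes 13 and X lay at the low end with 14 (1.66% against 3.95%) and 5 (0.594% against 1.87%). In single EtOH lists chromosome 5 held 6 of 22 members in tumour 1 (27.3%), 11 of 150 in tumour 2 (7.33%), 91 of 602 in tumour 3 (15.1%) and 45 of 299 in tumour 4 (15.1%), so tumour 2 lay lowest. Chromosome 3 held 14.7% of the tumour 2 members and 8.64% to 9.09% in the other tumours, and chromosome 16 held 8.03% of the tumour 4 members and 2.99% to 4.55% in the others.

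The chromosome 5 share was also measured over whole lists, which the rule did not shape outside EtOH and unactivated Arf lists. It was 10%, 5.96%, 8.59% and 7.91% of all regions in the OHT lists of tumours 1 to 4, and 5.82% to 6.64% in the doxorubicin and (-)-Nutlin lists. Tumour 2 was the one KI tumour within the Arf range. Members on chromosome 5 fell into 13 of the 16 stretches of 10 Mb that held any region, with the most, 30, between 130 and 140 Mb. Chromosome copy number moves the read depth of a whole chromosome and was not measured here, so its part in these shares was not tested.

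**Figure D5:**
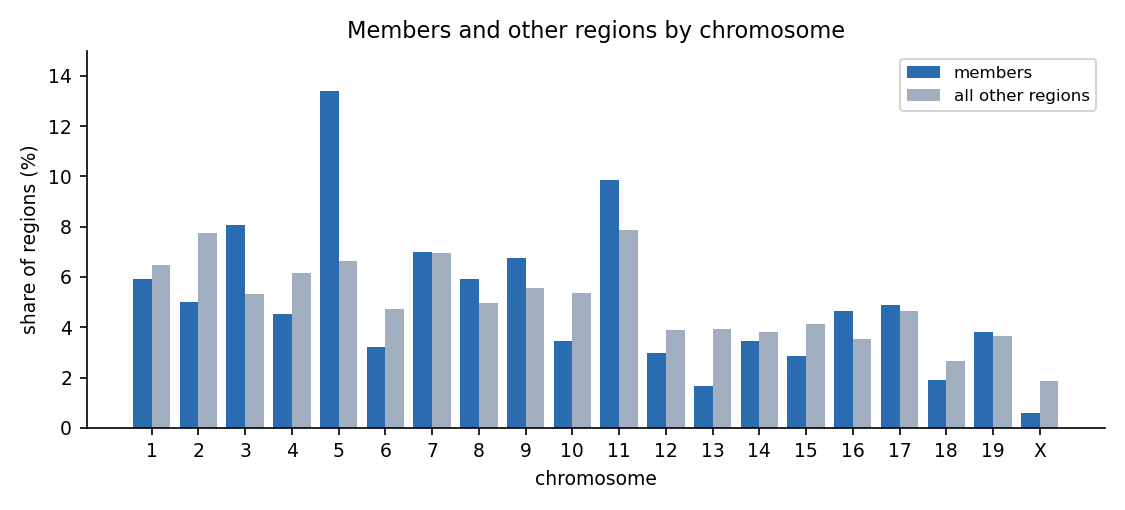
Share of the 842 members (blue) and of all other regions (grey) on each chromosome, in percent. Chromosome 5 holds 13.4% of members and 6.65% of other regions. Chromosomes M and Y, with 0 and 1 members, are not drawn.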

How the data were processed

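Of 33 libraries, the 26 p53 immunoprecipitates were used, and the 7 inputs were not analysed here. BWA 0.6.2, SAMtools and build mm9 are named per the submitters' processing notes. Peak caller, threshold and input correction were not given in the sources used here. Each of the authors' deposited lists holds the chromosome, start and end of peaks in bp, with no height or p-value, and was taken as it stands. Read depth is unknown. Coordinates are mm9, counted from 1. The annotation at hand was GRCm38.p6, so gene names, motifs and sequences were not used here, nor a list of p53 target genes.

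Groups and tumour numbers came from titles, and the number marks the tumour and pairs its samples. Members and lists were chosen with earlier results of these data known. Tests were two-sided and exact (Python 3.11.15, numpy 2.4.6, pandas 2.3.3, scipy 1.17.1), at a threshold of 0.05. They shuffled lists, pairings of EtOH with OHT lists, or the signs of differences within tumours. Tests that shuffled lists took no account of the tumour, and lists of 1 tumour are not independent. The widest peak of a list in a region gave its width. Code was tested on simulated lists. Named regions were members in 3 or 4 EtOH lists (first 12 by number of EtOH lists, activated lists and position), 5 in most lists without OHT, 5 in all 10 activated and fewest unactivated Arf lists, and the 3 widest in EtOH lists alone. Alternatives were a merge gap of 200 bp, peaks of 200 bp around the midpoint, joining at 50% of the shorter peak, at least 2 EtOH lists, lists cut to the shortest, the tumour block and each tumour left out.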

Additional observations from a re-analysis of the deposited data

Results flagged for a closer look

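Members made up 29.7% of the regions in the EtOH list of tumour 1, far from the other 3 EtOH lists, where they made up 91.5% to 96.3%. The EtOH lists chose the members, so this is a description.

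Chromosome 5 held 6.71% of the regions in the EtOH list of tumour 2, far below 14.9%, 14.9% and 14.4% in tumours 1, 3 and 4. Both lists were singled out by the Dixon test at the 95% level, which sets the gap to the nearest other list against the range of the group. Chance alone meets such a level in about 1 of 20 groups for a single measure. More than 1 measure was looked at, so chance sets a list apart more often than that. The EtOH lists also chose the members, so neither gap is taken as a test result.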

How the results depend on the processing

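The number of members was 840 with a merge gap of 200 bp, 860 with peaks of 200 bp around the midpoint and 842 with joining at 50% of the shorter peak. It was 190 with at least 2 EtOH lists required, and 405 to 841 with 1 tumour left out, lowest without tumour 3. The share called in the own OHT list stayed between 70.6% and 82.4% under other processing and between 77.6% and 91.6% with 1 tumour left out. Its excess over other tumours was 5.99 to 13.3 points with 1 tumour left out, where 3 pairs cannot reach the threshold, and 9.23 to 9.89 otherwise, with an exact p of 0.0417 each time. The doxorubicin difference from (-)-Nutlin ran from -17.8 to 2.79 points with 1 tumour left out, positive without tumour 6. With the tumour as replicate block it was -9.58 points with an exact p of 0.75, and with lists cut to the shortest -26.5 points with an exact p of 0.1. The OHT difference from activated Arf lists was 17.1 points with cut lists instead of -7.55, with an exact p of 0.124. The excess of members over Arf-only regions in OHT lists over that in activated Arf lists, a value with no test, stayed between 21.0 and 34.4 points in all alternatives run. The width difference in OHT lists stayed between 0.07 and 0.26 on the log2 scale, and the chromosome 5 excess between 6.32 and 9.46 points. The comparison of members with Arf-only regions and the chromosome 5 share, with their alternatives, were chosen after seeing the data. Read depth is unknown and the EtOH lists hold 116 to 742 peaks, so that a site without an EtOH call may have been bound below the threshold.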
